A study of Mus musculus with 60 samples.

Results

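Primary mouse hepatocytes kept for 7 days in hepatocyte culture medium without IL6 (HCM-Hepa-D7, first culture, P0) were compared with primary hepatocytes, whose labels name no day of culture, over every complete row of the table in which both groups were measured. The table held 480 complete rows and 1 cut-off row, which was not used, whereas another cell table of the series held 19357 genes. The rows stood in blocks of like pattern and were not a random draw of genes, so shares of rows are no estimate of shares of the transcriptome. Of the 480 rows, 276 reached at least 1 FPKM (fragments per kilobase of transcript scaled to the size of the library) in at least 3 of the 9 samples of the table and were tested, 164 had values below that, and 40 were at 0 in all 9 samples.

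The series held 60 samples, of which 6 belong to this comparison, 3 per group. All came from WT C57BL/6 mice, adult by the study's methods. Primary-hepatocytes were isolated by collagenase perfusion and a density gradient, a mixture of whatever cells passed it. HCM-Hepa-D7 (P0) were hepatocytes at day 7 in hepatocyte culture medium with EGF and HGF. IL6-iHPCs-D7 (P0), which the study calls induced hepatic progenitor cells, gave 3 further samples and had such a medium with IL6, whose recipe also lists dexamethasone and an insulin-transferrin-selenium supplement and no serum. Plating, time and growth factors all lay between the hepatocytes and HCM-Hepa-D7, and their parts cannot be told apart. The comparison asks what culture in this medium changed with no IL6 present. The labels do not say whether the 3 samples of a group came from separate mice or cultures, and the study describes its transcriptomes of the other cell table as technical repeats, so p-values measure only the spread between these samples, which may be technical.

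Hepatocytes taken from the liver and plated are known to lose adult functions within days, to flatten and build up cytoskeleton, and to take up features of bile duct and progenitor cells. They are also known to answer a shortage of amino acids, or stress in the endoplasmic reticulum, through the transcription factor Atf4, which turns on genes for amino acid synthesis, amino acid transport and tRNA charging. Lipid synthesis in hepatocytes is governed by Srebf1, a factor that responds to insulin and feeding.

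The depth of each library was recovered from the values, since an FPKM is a whole number of reads divided by a gene length and a library total. It came to 49.9, 49.5 and 68.6 M reads in the hepatocyte samples and 87.8, 71.0 and 57.1 M in HCM-Hepa-D7. None of the 12 hepatocyte markers chosen for a check of the cell type (albumin, Hnf4a, Cyp2e1 and the like) and none of 114 markers of Kupffer cells and leukocytes, endothelial cells, stellate cells and red cells stood among the 480 rows, so neither the hepatocyte label nor the presence of other cells could be checked here, and their part in the results was not tested. The first principal component of the 276 tested genes, with 94.2% of the variance, set the 3 hepatocyte samples apart from the 6 culture samples, and the second, with 4.86%, set the 2 cultures apart from each other. No sample of either group lay with the other group. In such bulk samples, fewer cells of a type and less RNA per cell cannot be told apart.

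Culture for 7 days without IL6 was marked by rises. By limma, with an adjusted p under 0.05 and at least a 2-fold change, 126 of the 276 tested genes (45.7%) were higher in HCM-Hepa-D7 and 23 (8.33%) were lower, 149 (54%) in all. Among these, 59 rose and 4 fell by at least 4-fold, and 13 rose by at least 16-fold. All 126 higher and all 23 lower genes had no overlap between the 3 samples of each group, against 73.2% of tested genes with all HCM-Hepa-D7 samples above and 21% with all below. The median log2 fold change over the 276 genes was 0.87. Of the 276 genes, 58 were below 1 FPKM in all 3 hepatocyte samples and could enter the test only through the cultures, whereas 210 were at 1 FPKM or more in all 3 hepatocyte samples. Among those 210 genes, 72 rose and 23 fell. A gene that passed only through the cultures had to be higher in at least 1 of the cultures, so the counts and medians of gene groups below are descriptions, to be read beside 45.7% higher and 8.33% lower over all tested genes.

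The split between rises and falls rested on the scale. With each sample centred on its own median over the tested genes, 58 genes (21%) were higher and 69 (25%) lower, since centring moved the log2 fold change of every gene down by 1.06. The summed FPKM of the 480 rows was 5516 to 5674 in the hepatocyte samples and 11572 to 11843 in the HCM-Hepa-D7 samples. Whether all transcripts or only these rows shifted cannot be told from part of a transcriptome, so changes of gene groups are given beside the median of 0.87. Of the 149 called genes, 5 changed sign under centring and 5 under quantile normalization, all of them rises of 1.13 or less on the log2 scale.

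**Figure D1:**
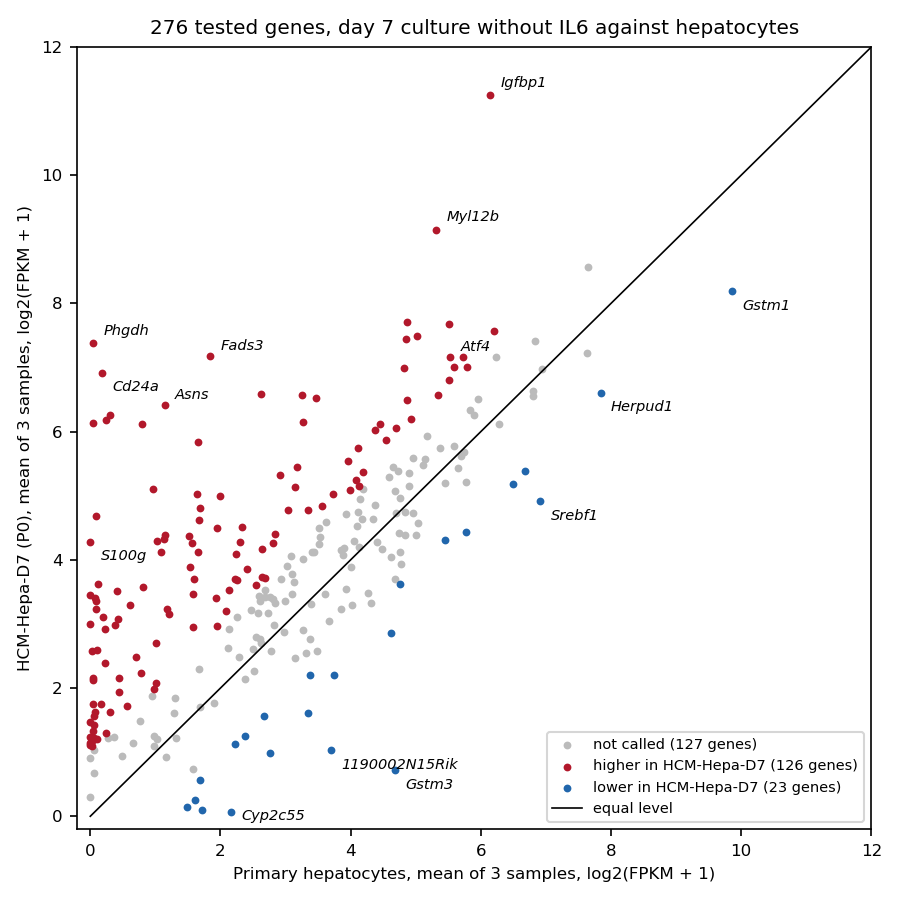
Mean level of each tested gene in primary hepatocytes (x axis) and in HCM-Hepa-D7 (y axis), both as log2(FPKM + 1) over 3 samples, with genes called higher in red, called lower in blue and not called in grey. The 126 higher genes reach from the left edge, where hepatocytes had almost no transcript, up to Igfbp1, and the 23 lower genes lie below the line of equal level, with Gstm1 the most abundant of them.

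Phgdh showed the largest rise of the table, and other enzymes of amino acid synthesis rose with it. Phgdh, the first enzyme of serine synthesis, was at 0.0428, 0.0432 and 0.0156 FPKM in hepatocytes and 188, 155 and 155 FPKM in HCM-Hepa-D7. Its transcript was almost absent from hepatocytes, where all 3 samples together gave 10 reads, and its log2 fold change was 7.33 ± 0.11 (SE, adjusted p = 1.5e-14). Psat1, the second enzyme of that pathway, was at 0.134, 0.289 and 0.124 FPKM in hepatocytes and 75.0, 69.5 and 69.6 FPKM in HCM-Hepa-D7, log2 fold change 5.94 ± 0.082 (SE), adjusted p = 8.5e-15. Psph, which completes it, was at 2.06, 2.25 and 2.27 FPKM in hepatocytes and 24.8, 22.3 and 24.0 FPKM in HCM-Hepa-D7, log2 fold change 2.95 ± 0.087 (SE), adjusted p = 6.5e-12. All 3 enzymes of the serine pathway were thus higher in every HCM-Hepa-D7 sample than in every hepatocyte sample, as were 73.2% of all tested genes. Asns, asparagine synthetase, was at 1.18, 1.02 and 1.45 FPKM in hepatocytes and 89.5, 80.6 and 83.3 FPKM in HCM-Hepa-D7, log2 fold change 5.27 ± 0.08 (SE), adjusted p = 1.8e-14. Pycr1, the last enzyme of proline synthesis, was at 0.145, 0.186 and 0.162 FPKM in hepatocytes and 6.91, 6.18 and 6.69 FPKM in HCM-Hepa-D7, log2 fold change 2.70 ± 0.085 (SE), adjusted p = 1.2e-11. These were the 5 tested genes of the list of amino acid and urea metabolism, with a median log2 fold change of 5.27 (4.21 after centring) against 0.87 for all tested genes. Of the 5, 3 (Phgdh, Psat1 and Pycr1) were under 1 FPKM in all 3 hepatocyte samples and so were tested only through the cultures, where they had to be higher.

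These enzymes belong to a wider set of genes known to respond to amino acid shortage and Atf4, written down after the gene symbols and values had been seen. Of its 26 measured members 25 were tested, 15 rose, 4 fell and 6 were not called, beside 45.7% higher and 8.33% lower over all tested genes, with a median of 1.43 (0.37 after centring). Of the 15 that rose, 7 (Phgdh, Psat1, Mthfd2, Nupr1, Chac1, Pycr1 and Adm2) were under 1 FPKM in all 3 hepatocyte samples and were tested only through the cultures. Atf4 itself was at 45.1, 44.3 and 45.9 FPKM in hepatocytes and 149, 137 and 141 FPKM in HCM-Hepa-D7, log2 fold change 1.63 ± 0.062 (SE), adjusted p = 6.6e-11. Atf4 was well expressed in all 3 hepatocyte samples, unlike most of the enzymes. Pck2, the mitochondrial form of phosphoenolpyruvate carboxykinase, was at 1.01, 0.924 and 0.903 FPKM in hepatocytes and 33.9, 33.3 and 32.7 FPKM in HCM-Hepa-D7, log2 fold change 4.14 ± 0.076 (SE), adjusted p = 8.1e-14. Slc3a2, the heavy chain shared by several amino acid transporters, was at 8.34, 8.96 and 8.21 FPKM in hepatocytes and 96.7, 92.6 and 92.2 FPKM in HCM-Hepa-D7, log2 fold change 3.32 ± 0.057 (SE), adjusted p = 4.3e-14. Mthfd2, a mitochondrial folate enzyme that uses one-carbon units from serine, rose from a mean of 0.331 to 10.5 FPKM.

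The other members that rose included Chac1, Trib3, Nupr1 and tRNA synthetases. Chac1, which breaks down glutathione, rose from a mean of 0.756 to 10.9 FPKM (log2 fold change 2.77 ± 0.089, SE, adjusted p = 1.4e-11). Trib3, a pseudokinase that restrains Akt signalling, rose from 2.87 to 21.5 FPKM (log2 fold change 2.54 ± 0.068, SE, adjusted p = 2.8e-12). Nupr1, a small stress-induced nuclear protein, was at 0, 0.258 and 0.186 FPKM in hepatocytes and 6.90, 7.59 and 8.56 FPKM in HCM-Hepa-D7, and 1 hepatocyte sample was at 0. The tRNA synthetases for tyrosine and methionine, Yars and Mars, rose by 1.43 and 1.18 on the log2 scale, while Aars, for alanine, had a log2 fold change of 0.36, under the 2-fold limit.

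Some known members of the same response went the other way. Herpud1, an endoplasmic reticulum membrane protein that helps degrade misfolded proteins, was at 225, 230.2 and 229.9 FPKM in hepatocytes and 95.4, 97.3 and 96.8 FPKM in HCM-Hepa-D7, log2 fold change -1.23 ± 0.049 (SE), adjusted p = 1.1e-10. Gdf15, a stress hormone, was at 96.2, 101 and 106 FPKM in hepatocytes and 42.0, 38.7 and 41.7 FPKM in HCM-Hepa-D7, log2 fold change -1.29 ± 0.066 (SE), adjusted p = 1.2e-09. Fgf21, a hormone that the fasting liver secretes, was at 1.99, 1.88 and 1.57 FPKM in hepatocytes and 0.278, 0.0245 and 0.0305 FPKM in HCM-Hepa-D7, log2 fold change -1.35 ± 0.11 (SE), adjusted p = 8.2e-08. Its level was low in both groups, and HCM-Hepa-D7 sample 1 stood above samples 2 and 3. Slc6a9, a glycine transporter, fell from a mean of 9.36 to 3.63 FPKM (log2 fold change -1.16 ± 0.064, SE, adjusted p = 2.5e-09). Atf3 (log2 fold change -0.12, adjusted p = 0.07), Atf5 (-0.24, adjusted p = 0.0019) and Nfil3 (-0.079, adjusted p = 0.24), further stress-response factors, did not pass the limits. The response genes did not move as 1 block. Members for amino acid synthesis and tRNA charging held no fall, and the 4 that fell were Fgf21, Gdf15, Herpud1 and Slc6a9.

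**Figure D2:**
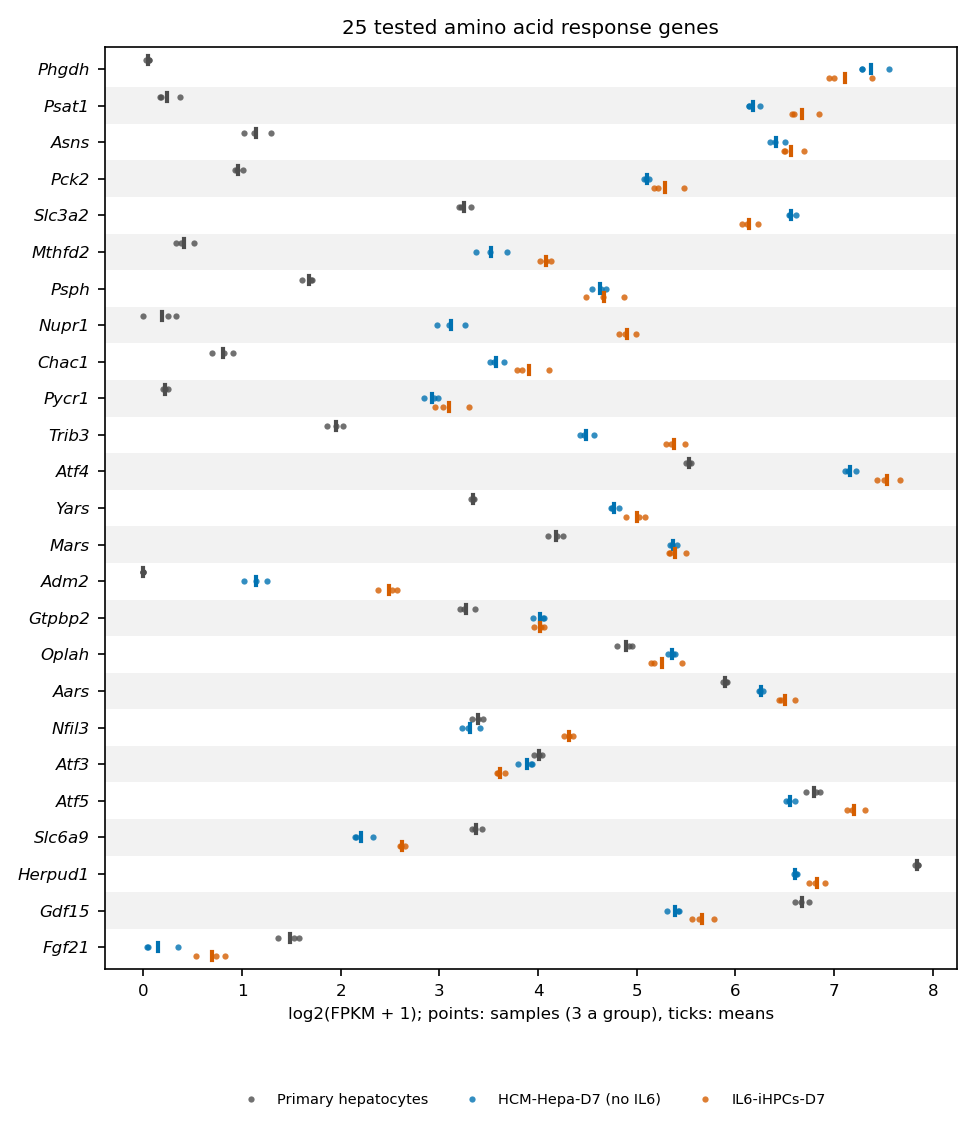
Level of each of the 25 tested amino acid response genes as log2(FPKM + 1) on the x axis, with 1 point per sample and a tick at the mean of each group of 3 samples. From Phgdh down to Adm2 the blue points of HCM-Hepa-D7 lie to the right of the grey hepatocyte points, from Slc6a9 down to Fgf21 they lie to the left, and the 6 genes in between moved by less than 2-fold.

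The promoters of these genes were read because Atf4 with its C/EBP partners is known to bind an amino acid response element, here searched as TGATGNAA on both strands. RefSeq promoter windows (GRCm38.p6, 250 bases before to 50 after each start) were found for 231 of the 276 tested genes, 12 of them under an older symbol, and for 24 of the 25 response genes. The element was in the windows of 11 of these 24 genes (45.8%), of 15 of 109 genes that rose (13.8%), of 4 of 19 that fell (21.1%), of 3 of 103 other tested genes (2.91%) and of 4.51% of all 27025 genes with a window. Among the amino acid response genes it was found in promoters of genes that rose (Asns, Chac1, Pck2, Pycr1, Nupr1, Trib3, Yars), of genes that fell (Fgf21, Herpud1) and of genes not called (Atf3, Aars). It was not found in the windows of Phgdh, Psat1 or Psph. These sets overlap, since the response genes were also counted among the genes that rose, fell or were not called. The response genes were chosen as known to respond to Atf4, so a high share among them could follow from that choice. A match describes letters in the window and not binding of a factor. The 250 bases before the start are given for 4 genes that rose and 2 that fell, in the direction of transcription, to show the element in genes of both directions. Capitals mark the element, read on the printed strand or as its reverse complement. Its first base lay 23 bases before the start in Asns, 103 in Pck2, 103 in Pycr1 and 193 in Chac1, which rose, and 112 in Herpud1 and 139 in Fgf21, which fell.
Asns (chr6:7693210-7693459, - strand): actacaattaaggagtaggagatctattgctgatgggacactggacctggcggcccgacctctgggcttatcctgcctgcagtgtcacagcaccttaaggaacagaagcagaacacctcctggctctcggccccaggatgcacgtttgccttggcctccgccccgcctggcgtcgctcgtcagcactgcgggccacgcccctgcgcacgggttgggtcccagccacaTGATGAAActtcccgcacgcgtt
Chac1 (chr2:119350992-119351241, + strand): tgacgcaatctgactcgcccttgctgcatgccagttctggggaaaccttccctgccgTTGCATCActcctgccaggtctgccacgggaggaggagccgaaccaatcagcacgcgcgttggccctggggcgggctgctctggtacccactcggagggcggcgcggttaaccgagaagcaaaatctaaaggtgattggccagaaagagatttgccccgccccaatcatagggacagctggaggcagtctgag
Pck2 (chr14:55540016-55540265, + strand): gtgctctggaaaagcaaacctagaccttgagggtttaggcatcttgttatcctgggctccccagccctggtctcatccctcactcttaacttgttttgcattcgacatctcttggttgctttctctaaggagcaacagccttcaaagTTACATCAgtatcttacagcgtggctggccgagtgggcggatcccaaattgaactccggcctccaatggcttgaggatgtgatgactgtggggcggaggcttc
Pycr1 (chr11:120643749-120643998, - strand): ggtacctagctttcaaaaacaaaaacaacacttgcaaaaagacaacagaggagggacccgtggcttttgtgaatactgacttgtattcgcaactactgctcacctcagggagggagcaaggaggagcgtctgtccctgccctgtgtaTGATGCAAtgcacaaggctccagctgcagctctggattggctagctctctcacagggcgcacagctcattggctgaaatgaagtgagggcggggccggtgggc
Fgf21 (chr7:45615491-45615740, - strand): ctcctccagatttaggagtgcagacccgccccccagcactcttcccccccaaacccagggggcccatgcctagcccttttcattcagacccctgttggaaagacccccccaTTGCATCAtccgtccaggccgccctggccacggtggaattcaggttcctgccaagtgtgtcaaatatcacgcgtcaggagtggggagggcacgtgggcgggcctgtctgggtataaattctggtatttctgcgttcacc
Herpud1 (chr8:94386179-94386428, + strand): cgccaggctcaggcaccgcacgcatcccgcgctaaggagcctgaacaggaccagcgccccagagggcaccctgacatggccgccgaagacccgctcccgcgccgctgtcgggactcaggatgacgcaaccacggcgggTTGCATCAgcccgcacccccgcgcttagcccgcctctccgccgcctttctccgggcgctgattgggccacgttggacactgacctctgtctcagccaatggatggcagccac

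Other large rises were those of Cd24a, Ngfrap1, Tubb2b, Fads3, Ucp2 and Igfbp1. Cd24a, a surface glycoprotein used as a marker of liver progenitor cells, was at 0.265, 0.0556 and 0.104 FPKM in hepatocytes and 125, 113 and 122 FPKM in HCM-Hepa-D7, log2 fold change 6.73 ± 0.081 (SE), adjusted p = 2.6e-15. Tubb2b, a beta-tubulin, was at 0.344, 0.221 and 0.129 FPKM in hepatocytes and 82.4, 72.1 and 72.2 FPKM in HCM-Hepa-D7, log2 fold change 5.96 ± 0.085 (SE), adjusted p = 1.1e-14. Tubb2a, its near-identical neighbour, rose from a mean of 39.7 to 94.0 FPKM, and reads of the 2 genes may have been split between them. Myl12b, a regulatory light chain of non-muscle myosin, was at 37.6, 38.9 and 39.6 FPKM in hepatocytes and 580.3, 557 and 568 FPKM in HCM-Hepa-D7, log2 fold change 3.84 ± 0.066 (SE), adjusted p = 4.3e-14. Vil1, villin, an actin-bundling protein of microvilli, rose from 0.0420 to 1.98 FPKM. Of the 12 tested genes of the cytoskeleton, adhesion and matrix list, 7 rose, none fell and 5 were not called, beside 45.7% and 8.33% of all tested genes, with a median of 1.09 (0.027 after centring). Of these 12 genes 6 were tested only through the cultures. The list lay near the median of all tested genes, and its largest changes were those of Cd24a, Tubb2b and Myl12b. Slc12a2, the other tested gene of the progenitor and biliary list, had a log2 fold change of 1.01, at the limit, and -0.057 after centring.

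Igfbp1, a secreted protein that binds insulin-like growth factors, became the most abundant transcript of the table. It was at 69.7, 69.5 and 70.5 FPKM in hepatocytes and 2454, 2472 and 2379.9 FPKM in HCM-Hepa-D7, log2 fold change 5.10 ± 0.042 (SE), adjusted p = 1.7e-16. Its share of the summed FPKM of the 480 rows went from between 1.23 and 1.26% in hepatocytes to between 20.6 and 21.2% in HCM-Hepa-D7. The related Igfbp7 was at 2.16, 2.18 and 2.07 FPKM in hepatocytes and 40.9, 58.4 and 75.4 FPKM in HCM-Hepa-D7, log2 fold change 4.2 ± 0.18 (SE), adjusted p = 2.6e-10, with the 3 culture samples spread more widely than for most genes. Thbd, thrombomodulin, an anticoagulant surface receptor, was at 0.102, 0.0109 and 0.0823 FPKM in hepatocytes and 23.8, 23.9 and 26.8 FPKM in HCM-Hepa-D7, log2 fold change 4.60 ± 0.076 (SE), adjusted p = 3.5e-14. Ucp2, a mitochondrial carrier known to be scarce in healthy hepatocytes, was at 0.720, 0.606 and 0.903 FPKM in hepatocytes and 61.5, 75.3 and 70.0 FPKM in HCM-Hepa-D7, log2 fold change 5.33 ± 0.085 (SE), adjusted p = 2.3e-14. Fads3, a member of the fatty acid desaturase family, was at 2.43, 2.57 and 2.72 FPKM in hepatocytes and 151, 137 and 143 FPKM in HCM-Hepa-D7, log2 fold change 5.34 ± 0.062 (SE), adjusted p = 2.5e-15. Ngfrap1, a small protein known to bind the p75 neurotrophin receptor, was at 0, 0 and 0.0791 FPKM in hepatocytes and 73.7, 67.2 and 66.7 FPKM in HCM-Hepa-D7, log2 fold change 6.10 ± 0.061 (SE), adjusted p = 6.9e-16. Its hepatocyte level came from 5 reads in all 3 samples.

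**Figure D3:**
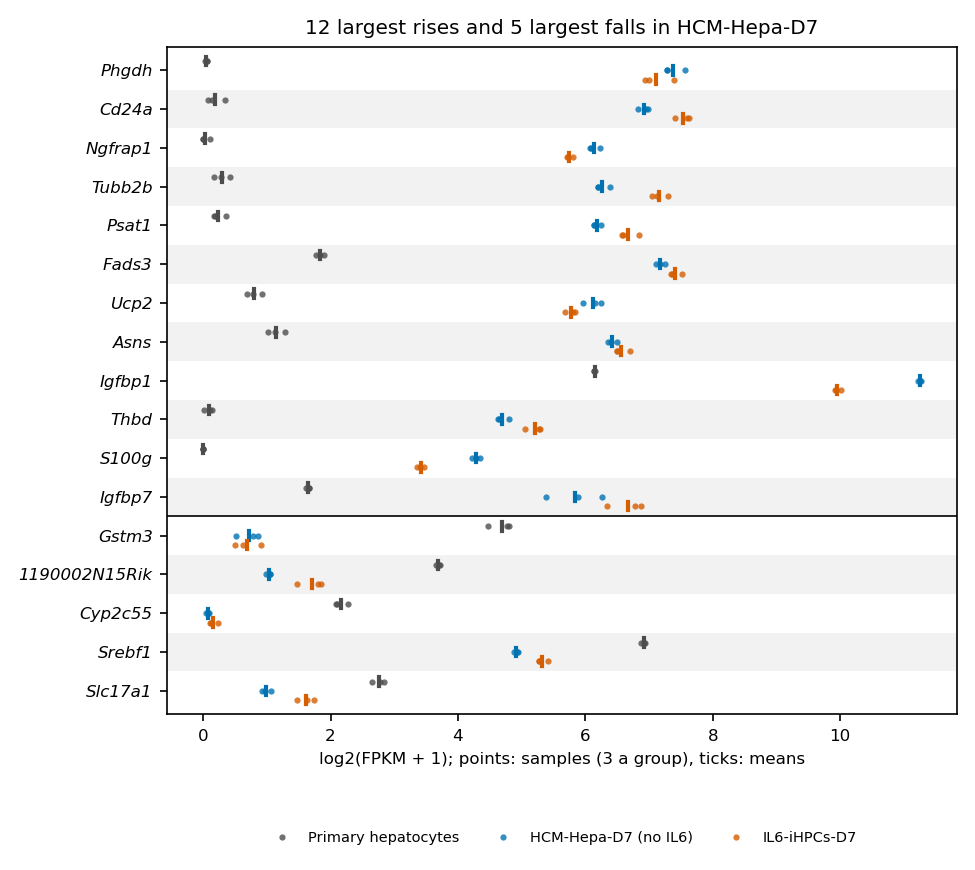
Level of the 12 genes with the largest rises (above the line) and the 5 with the largest falls (below it), as log2(FPKM + 1) on the x axis, 1 point per sample and a tick at the mean of 3 samples. In each row the blue points of HCM-Hepa-D7 stand clear of the grey hepatocyte points, and for most rows the orange points of the culture with IL6 lie on the same side as the blue ones.

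Some transcripts were found in culture alone at this depth. S100g, a small calcium-binding protein, gave 0 reads in the 3 hepatocyte samples and 19.4, 18.6 and 17.6 FPKM in the HCM-Hepa-D7 samples, at least 501-fold higher against a floor of 3 reads over the hepatocyte group. The chemokines Ccl7 and Ccl20, which attract monocytes and lymphocytes, also gave 0 reads in hepatocytes. Ccl7 reached 10.7, 9.25 and 9.88 FPKM, at least 449-fold higher, and Ccl20 reached 6.74, 7.07 and 7.30 FPKM, at least 314-fold higher. Uts2b and Adm2, which encode secreted peptides, and Psca, a surface protein, were listed at 0 in all 3 hepatocyte samples and at means of 1.81, 1.21 and 1.36 FPKM in culture, at least 81.5-fold, 87.2-fold and 63.3-fold higher. Itm2a was at least 111-fold higher on the same floor. Nkain4, which was at least 50.6-fold higher in reads, did not pass the 2-fold limit on log2(FPKM + 1), a scale that understates the change of low genes. Such floors cover counting error only.

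Among transcription factors, the 6 tested basic leucine zipper factors were Atf4, Cebpd, Jund, Atf3, Atf5 and Nfil3, of which the first 2 rose. Cebpd, a C/EBP factor induced in the acute-phase response, was at 2.75, 2.66 and 2.98 FPKM in hepatocytes and 11.3, 8.62 and 9.05 FPKM in HCM-Hepa-D7, log2 fold change 1.48 ± 0.10 (SE), adjusted p = 2.2e-08. Jund, an AP-1 factor, had a log2 fold change of 0.57 and was under the limit. Of 6 tested C2H2 zinc finger factors, Zfp651, Zfp358, Zfp775, Zscan2 and Zfp414 rose by 1.71 to 1.13 on the log2 scale and Zhx3 fell, beside 45.7% higher and 8.33% lower over all tested genes. Zfp651, Zfp775 and Zscan2 were under 1 FPKM in all 3 hepatocyte samples and were tested only through the cultures. The median of the 6 factors, 1.3, was 0.24 after centring, and Zfp414 was at -0.13 under quantile normalization. Of 4 tested factors known for hepatocyte programs, Srebf1 and Zhx3 fell, Pparg, a fat cell and lipid storage receptor, rose from 1.02 to 3.26 FPKM (log2 fold change 1.08 ± 0.11, SE, adjusted p = 1.5e-06), and Atf5 was not called. Under quantile normalization Pparg was at -0.22. Nfic, a CCAAT-binding nuclear factor, fell from 26.0 to 11.5 FPKM (log2 fold change -1.12 ± 0.11, SE, adjusted p = 6.1e-07).

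The following counts stand beside 45.7% higher and 8.33% lower over all tested genes. Of 11 tested genes of the signalling list 9 rose, with Igfbp1, the phosphatase subunit Ppp2r5b (3.11) and Pde6d (2.86) first, and Fgf21 fell. Prkcsh, counted among the 9 rises, is despite its symbol a subunit of a glucosidase of the endoplasmic reticulum. Of 10 membrane transporters 6 rose, among them Slc44a3 (2.70) and the copper carrier Slc31a2 (2.10), and 2 fell, Slc17a1 and Slc6a9. Among 4 chromatin regulators, the Polycomb protein Cbx6 rose from 0.0471 to 9.63 FPKM (log2 fold change 3.34 ± 0.084, SE, adjusted p = 1.5e-12), the linker histone H1f0 rose by 1.3, and Phf1 and Ing4 were not called. The linker histone gene Hist1h1c rose from 28.1 to 209 FPKM, although histone genes are near copies of each other and their reads may be shared. Of 6 tested genes of the ribosome and RNA processing list 4 rose (Rpl17, Ddx28, Yars and Mars), and Aars and Mrps2 were not called. Yars, Mars and Aars are tRNA synthetases that were also counted among the amino acid response genes above. Rpl17, at 21.9, 25.5 and 55.8 FPKM in hepatocytes and 391, 119 and 124 FPKM in culture, had a standard error of 0.46, the largest of the table. Many processed copies of Rpl17 exist. Sample 1 of HCM-Hepa-D7 stood far above samples 2 and 3, and without it the log2 fold change was 1.91. Of 8 tested genes of the proteostasis and endoplasmic reticulum list Rab3d rose (2.46), Herpud1 fell and 6 were not called. Rab3d, the only rise in it, is a GTPase of vesicle transport, as are Rab20 and Rab11b among those not called. The median log2 fold changes were 1.36 for signalling, 1.15 for transporters, 1.02 for chromatin regulators, 1.31 for ribosomes and RNA processing and 0.75 for proteostasis. In these lists 3 signalling genes, 2 transporters and 1 chromatin regulator were under 1 FPKM in all 3 hepatocyte samples. They were tested only through the cultures. Of 4 tested genes of glucose and energy metabolism Pck2 rose, and Tkfc, Gaa and Pklr were not called, with a median of 0.56. The AP-1, Egr and Myc list, in which Atf4 rose and Atf5, Jund, Atf3 and Csrnp1 were not called, had a median of 0.57, and the basic leucine zipper factors 0.24.

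The deepest falls were in detoxification. Gstm3, a mu-class glutathione transferase, was at 26.9, 26.4 and 21.3 FPKM in hepatocytes and 0.426, 0.715 and 0.816 FPKM in HCM-Hepa-D7, log2 fold change -3.97 ± 0.13 (SE), adjusted p = 1.2e-11, the largest fall of the table on log2(FPKM + 1). Gstm1, its abundant relative and the highest transcript of the table in hepatocytes, was at 919, 943 and 912 FPKM in hepatocytes and 256, 316 and 309 FPKM in HCM-Hepa-D7, log2 fold change -1.66 ± 0.07 (SE), adjusted p = 1.8e-10. The 2 genes are close copies, so reads may have been shared between them. Cyp2c55, a cytochrome P450, was at 3.31, 3.86 and 3.26 FPKM in hepatocytes and 0.0344, 0.0510 and 0.0634 FPKM in HCM-Hepa-D7, log2 fold change -2.09 ± 0.072 (SE), adjusted p = 2.4e-11. The other tested P450, Cyp2b10, had a log2 fold change of 0.54 and was not called. Of 6 tested genes of the conjugation and drug disposal list, Gstm3 and Gstm1 fell, and Aldh3a2 (0.43), Ces2g (-0.34), Nat6 (-0.58) and Gclm (-0.17) were under the limit. The median of the 6 was -0.46, below the 0.87 of all tested genes, with -1.52 after centring. Nat6, despite its symbol, is not an arylamine N-acetyltransferase of drug conjugation, and it counts in that median.

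Srebf1, which governs fatty acid synthesis, fell with its target Fasn. Srebf1 was at 116, 122 and 121 FPKM in hepatocytes and 28.3, 29.3 and 29.9 FPKM in HCM-Hepa-D7, log2 fold change -2.0 ± 0.054 (SE), adjusted p = 2.8e-12. Fasn, fatty acid synthase, was at 87.4, 92.3 and 88.6 FPKM in hepatocytes and 30.5, 38.6 and 37.2 FPKM in HCM-Hepa-D7, log2 fold change -1.32 ± 0.081 (SE), adjusted p = 7.7e-09. Acsl3, which activates long-chain fatty acids, was at 9.05, 9.14 and 9.25 FPKM in hepatocytes and 1.67, 2.26 and 2.29 FPKM in HCM-Hepa-D7, log2 fold change -1.73 ± 0.11 (SE), adjusted p = 9.9e-09. Not all lipid genes followed. Of 12 tested genes for sterol and fatty acid synthesis, a list written after the values had been seen, 3 fell (Srebf1, Acsl3, Fasn), 2 rose and 7 were not called, with a median of -0.50. The cholesterol synthesis genes Hmgcs1 (-0.56), Cyp51 (-0.44) and Msmo1 (-0.056) did not pass the limits. The lipid and bile acid list, which holds many of the same genes, had 15 tested genes, of which 5 rose, 3 fell and 7 were not called, with a median of -0.25. In it Acot2 (3.20), Pnpla2 (1.64), the lipase that opens fat stores, and Angptl4 (1.37) also rose. Acot1, a near copy of Acot2, was at 0.98.

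Slc17a1, a phosphate and urate transporter, fell from 5.78 to 0.982 FPKM and 1190002N15Rik from 11.9 to 1.04 FPKM. Celsr1, a cadherin of planar cell polarity, was at 2.14, 2.37 and 2.34 FPKM in hepatocytes and 0.0381, 0.0763 and 0.0982 FPKM in HCM-Hepa-D7, log2 fold change -1.62 ± 0.067 (SE), adjusted p = 1.7e-10. Zhx3 fell from 12.5 to 3.60 FPKM (log2 fold change -1.55 ± 0.07, SE, adjusted p = 3.4e-10) and Fam81a from 2.04 to 0.188 FPKM. Of the 23 falls, 15 were smaller than that of Gstm1 on log2(FPKM + 1). That scale understates falls of low genes, and as a ratio of FPKM Celsr1 and Fam81a fell more than Gstm1.

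**Figure D4:**
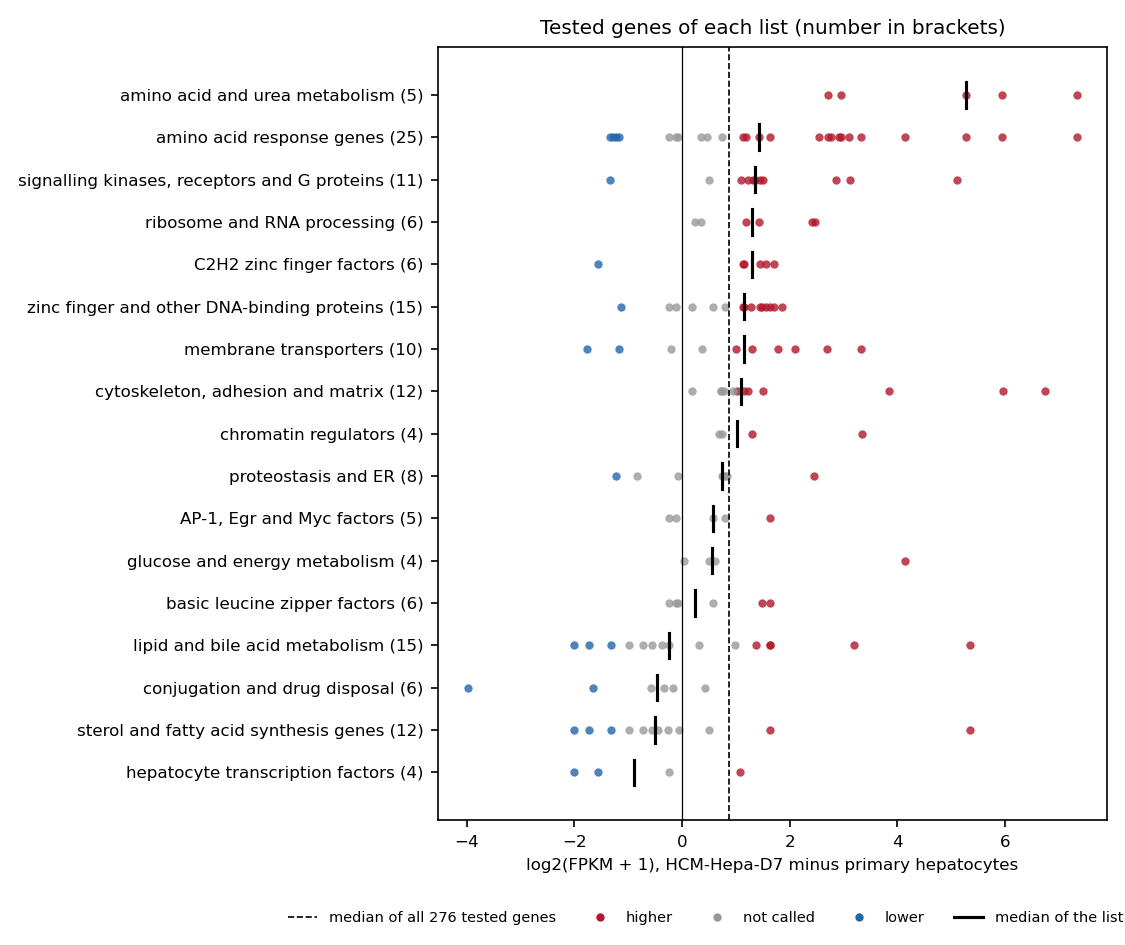
Difference in log2(FPKM + 1) between HCM-Hepa-D7 and primary hepatocytes (x axis) for each tested gene of 17 lists with at least 4 tested genes, 1 point per gene and a black tick at each list's median, with the number of tested genes in brackets. Most list medians stand near the dashed line at the median of all 276 genes, amino acid metabolism stands to the right of it at 5.27, and drug disposal, lipid and bile acid metabolism, sterol and fatty acid synthesis and hepatocyte transcription factors stand to the left of 0.

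The culture with IL6 was measured against the same 3 hepatocyte samples, so its values are given only beside those above. In IL6-iHPCs-D7 128 genes (46.4%) were higher and 19 (6.88%) lower than in hepatocytes, 147 (53.3%) in all, with a median log2 fold change of 0.85. The means of Phgdh (139 FPKM), Psat1 (101), Asns (93.8), Cd24a (186) and Fads3 (169) with IL6 stood beside 166, 71.4, 84.5, 120.2 and 144 FPKM without it. Gstm3 (0.619 FPKM), Gstm1 (175), Srebf1 (38.8) and Fasn (36.6) with IL6 stood beside 0.652, 293, 29.2 and 35.4 FPKM without it. Rises and falls of this size were thus seen in the culture that never received IL6.

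The direct test between the 2 cultures called 15 genes (5.43% of 276), 2 higher (0.725%) and 13 lower (4.71%) without IL6. Igfbp1, at 983, 1029 and 965 FPKM with IL6, was higher without it by 1.29 ± 0.042 (SE, adjusted p = 4.4e-10). Htatip2, an oxidoreductase, was higher without IL6 by 1.05 ± 0.062 (SE, adjusted p = 5.2e-08), at 94.2, 88.6 and 89.9 against 40.7, 47.5 and 42.1 FPKM. Cebpd differed most, at 11.3, 8.62 and 9.05 against 58.9, 74.5 and 63.2 FPKM (log2 difference -2.64 ± 0.10, SE, adjusted p = 1.3e-09). It rose in culture without IL6 too, but to a mean of 9.66 FPKM from 2.80.

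Acnat2, an acyl-CoA N-acyltransferase of peroxisomes, was at 11.1, 10.1 and 10.8 FPKM without and 69.6, 68.7 and 68.3 FPKM with IL6 (log2 difference -2.58 ± 0.059, SE, adjusted p = 1.5e-11). Against hepatocytes it had a log2 fold change of -0.38 without IL6 and 2.20 with it. Serpina7, which carries thyroxine in plasma, was at 11.9, 12.8 and 11.7 FPKM without and 78.7, 63.2 and 85.2 FPKM with IL6 (log2 difference -2.53 ± 0.091, SE, adjusted p = 7.8e-10). Its small rise without IL6 (1.04) became -0.029 after centring. Nupr1 and Vil1 were also lower without IL6, with log2 differences of -1.79 ± 0.10 (SE, adjusted p = 3e-08) and -1.73 ± 0.087 (SE, adjusted p = 1.7e-08).

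The other 8 genes lower without IL6 were Fam129a, Celsr1, Adm2, Sh3tc1, Uts2b, Psca, P3h4 and Nfil3, with log2 differences from -1.48 to -1.0. Celsr1 was at 0.0709 FPKM without IL6, 1.72 FPKM with it and 2.28 FPKM in hepatocytes, with log2 fold changes against hepatocytes of -1.62 without and -0.27 with IL6. Nfil3 was at 8.93 FPKM without IL6, near the 9.48 FPKM of hepatocytes, and at 18.8 FPKM with it. Of the amino acid response genes 3 of 25 were called between the cultures, Nupr1, Adm2 and Nfil3, all lower without IL6, beside 15 of 276 genes (5.43%), of which 13 were lower. Phgdh (0.27), Asns (-0.15) and Psph (-0.046) had adjusted p-values of 0.055, 0.15 and 0.68 in that test. Other response genes passed the adjusted p but not the 2-fold limit. Among them Trib3 (-0.89, adjusted p = 5.9e-07), Mthfd2 (-0.56, 0.00014), Psat1 (-0.49, 0.0003) and Atf4 (-0.38, 0.00029) were lower without IL6. Slc3a2 was higher without IL6 (0.43, adjusted p = 5.5e-05). The median difference of the 25 genes was -0.24, against 0.00048 for all tested genes.

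**Figure D5:**
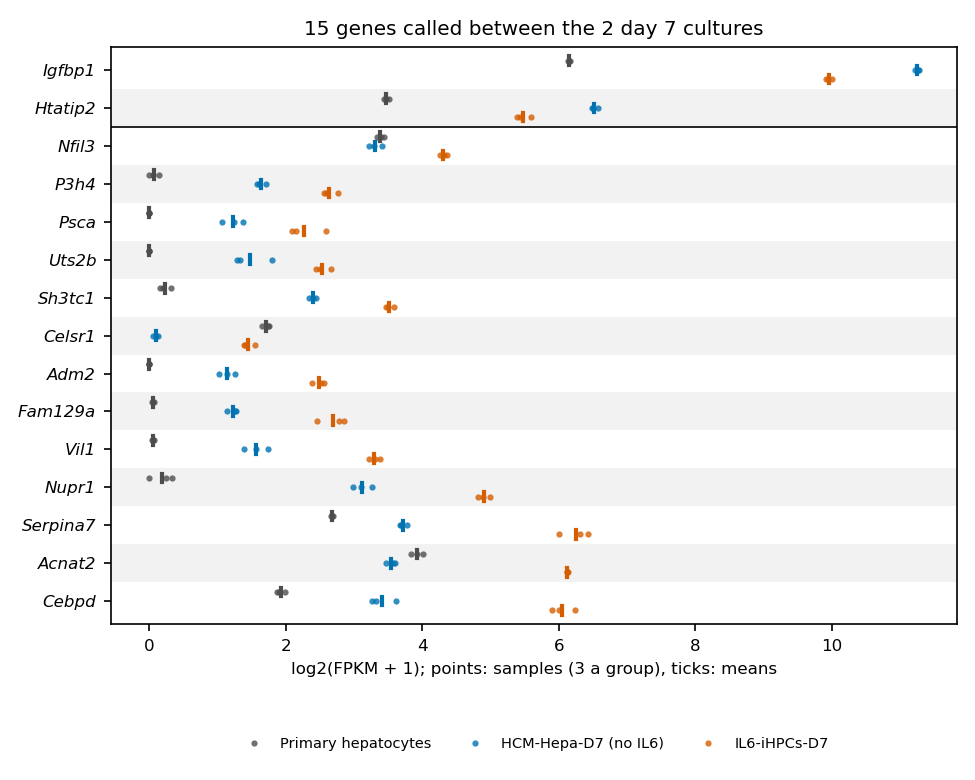
Level of the 15 genes called between the 2 day 7 cultures, as log2(FPKM + 1) on the x axis, 1 point per sample and a tick at the mean of 3 samples. Igfbp1 and Htatip2, above the line, were higher without IL6 (blue), and for the 13 genes below it the orange points of the culture with IL6 lie to the right, farthest for Cebpd, Acnat2 and Serpina7.

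A separate table of the series held other hepatocyte samples beside IL6-treated cultures at day 3 and day 14 (3 samples each), normalized apart from the day 7 table, and served as a description with no test. In it the median of all 11666 expressed genes was itself shifted, by 1.24 at day 3 and 1.09 at day 14 on the log2 scale. Of the 126 genes that rose without IL6, 122 were measured there, and 82 (67.2%) were at least 2-fold higher at day 3 and 80 (65.6%) at day 14, against 56.8% and 52.7% of all genes. Of the 127 tested genes not called at day 7, 124 were measured there. At least 2-fold higher were 25.8% of these at day 3 and 19.4% at day 14, and at least 2-fold lower were 6.45% and 1.61%. Of the 23 genes that fell, 22 were measured there, and 4 (18.2%) were at least 2-fold lower at each time, against 12.8% and 13.6% of all genes. In the other direction 3 of the 22 (13.6%) were at least 2-fold higher at day 3 and 2 (9.09%) at day 14, and the median differences of the 22 were 0.057 and 0.035.

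Single genes differed in this. Phgdh was at 0.196 FPKM in those hepatocytes, 48.2 at day 3 and 49.7 at day 14. Gstm3 was at 19.3, 0.432 and 0.547 FPKM, and Gstm1 at 721, 102 and 149 FPKM. Phgdh was low in hepatocytes and high in culture, and both transferases the reverse, as at day 7. Srebf1 was at 42.0, 22.8 and 38.5 FPKM, Fasn at 23, 20.1 and 55.5 FPKM, and Acsl3 at 2.53, 8.78 and 6.65 FPKM. The hepatocytes of the 2 tables, which were normalized apart, stood at different levels of these genes, with 119.8 FPKM of Srebf1 and 89.4 FPKM of Fasn in the day 7 table.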

How the data were processed

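RNA-seq was made from bulk cells. The deposited values were FPKM per gene. Per the labels the authors aligned reads with TopHat 1.4.1 to mm10 and used Cufflinks 1.3.0; the annotation and filters are not given in the sources used here. Columns were matched to samples by title. Library depth was recovered as the total that makes all 440 rows above 0 whole reads (tolerance 0.0001); whether a unit is a read or a pair is unknown. Genes with 1 FPKM or more in 3 or more of the 9 samples were tested on log2(FPKM + 1), which understates changes of low genes, with limma 3.58.1 in R 4.3.3 (variance trend, all 9 samples in 1 fit, Benjamini-Hochberg adjustment over 276 genes). A gene was called at an adjusted p under 0.05 and at least 2-fold. For 1 gene alone, an exact permutation of 3 against 3 samples cannot give a two-sided p below 0.10. The script was tested on simulated data.

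The members and lists were chosen with earlier results of these data known. Genes named were the 12 largest rises and falls, the 3 largest of each list in each direction, all tested genes of lists with 6 or fewer, the 5 most abundant per group, genes at 0 in 1 group, and the 5 largest differences between cultures in each direction. Acot1, Angptl4, Chac1, Cyp51, Fam129a, Itm2a, Msmo1, Mthfd2, Nkain4, P3h4, Sh3tc1, Trib3 and Tubb2a were named after their values were seen, as were the amino acid response and sterol synthesis lists, the amino acid response element and the voom alternative. Promoters came from RefSeq. Alternatives were other pseudocounts, filters, scalings, fold limits, sample sets and variance models. The table of regenerating liver was not used here, and some named items are not reported here.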

Additional observations from a re-analysis of the deposited data

Results flagged for a closer look

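Between the culture without IL6 and the culture with IL6, 15 of the 276 tested genes passed both limits in limma's test of the difference itself. These are listed because their change from hepatocytes was not the same in the 2 cultures. As HCM-Hepa-D7 minus IL6-iHPCs-D7 on the log2 scale, the differences were 1.29 for Igfbp1 and 1.05 for Htatip2, both higher without IL6. Cebpd (-2.64), Acnat2 (-2.58) and Serpina7 (-2.53) were the 3 farthest below the culture with IL6. Nupr1 (-1.79), Vil1 (-1.73), Fam129a (-1.48), Adm2 (-1.35), Celsr1 (-1.35) and Sh3tc1 (-1.12) followed. Uts2b (-1.06), Psca (-1.04), P3h4 (-1.01) and Nfil3 (-1.0) lay just past the 2-fold limit. With 3 samples per group, single samples were not tested as outliers.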

How the results depend on the processing

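The 149 genes called between HCM-Hepa-D7 and hepatocytes became 255 with no fold limit and 63 with a 4-fold limit, and stayed between 116 and 167 under every other setting run, with 148 to 150 when 1 sample was left out. The 15 genes called between the cultures became 25 with a pseudocount of 0.1, 9 with a filter at 5 FPKM, 27 by voom on recovered reads (an alternative chosen after seeing the data), 160 with no fold limit and 3 with a 4-fold limit, and 12 to 15 when 1 sample was left out. Voom called 140 genes higher and 27 lower than in hepatocytes. The median log2 fold change of 0.87 became 1.01 with a pseudocount of 0.1, 0.27 with no filter, 0.84 with a filter at 5 FPKM, 1.04 by voom, -0.087 under quantile normalization and -0.20 under median centring, and 0.86 to 0.88 when 1 sample was left out. Centring, which sets the medians of all samples to 1 common value, moved every log2 fold change down by 1.06. Quantile normalization moved them down by a median of 0.97. Under quantile normalization Pparg was at -0.22, Serpina7 at -0.011, Slc12a2 at -0.28 and Zfp414 at -0.13, and under centring Serpina7 was at -0.029 and Slc12a2 at -0.057. The split was 58 higher and 69 lower under centring, 61 and 68 under quantile normalization. Same-numbered samples of hepatocytes and HCM-Hepa-D7 did not deviate together (r across genes -0.21, 0.17 and -0.33), so the numbers were not taken as pairs, and a fit with a replicate block gave 149 and 15 calls and a median of 0.87. Depth limited genes of few reads, such as those at 0 in hepatocytes.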

Other observations

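Cell cycle and inflammation lists held too few tested genes for a median. Of 3 tested cell cycle and histone genes, Hist1h1c and Btg2, an antiproliferative gene, rose, by 2.85 and 1.37 on the log2 scale, and Hist1h1d was at 0.87. Ccl7 and Ccl20 were the only tested genes of the inflammation list, and Cebpd the only one of the IL6 and STAT3 response list. Ctsl, the lysosomal protease cathepsin L, was among the most abundant transcripts of the table in both groups, at 201, 196 and 202 FPKM in hepatocytes and 375, 384 and 374 FPKM in HCM-Hepa-D7. Fstl3, a secreted protein that binds activin, gave 2 reads in the 3 hepatocyte samples and 1.31, 1.15 and 1.26 FPKM in HCM-Hepa-D7, a ratio of 203.9 with a 95% counting interval of 56.2 to 1688.

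The STAT element TTCNNNGAA stood in 8.26% of promoter windows of genes that rose, 10.5% of those that fell, 5.83% of other tested genes and 9.55% of all genes. The E-box CACGTG stood in 12.8% of those that rose, 21.1% of those that fell, 16.5% of other tested genes and 8.09% of all genes. Of the 164 rows above 0 but below the filter, the highest single value was 1.17 FPKM, and 36 rows of the whole table were at 0 in all 3 hepatocyte samples and above 0 in all 3 HCM-Hepa-D7 samples.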
